A study of Danio rerio with 6 samples.

Results

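Eomesa peaks that stood beside Smad2 peaks without touching them were examined in zebrafish blastulas. A peak here is a stretch of chromatin recovered with an antibody more often than in whole chromatin. Members were chosen by the positions of the called peaks. They were the Eomesa peaks on chromosomes 1 to 25 that shared no base with a Smad2 peak, had the edge of a Smad2 peak within 50 kb, and did not lie in a dense group, that is a run of 3 or more Eomesa peaks with gaps of at most 10 kb. The rule was met by 462 of 6378 Eomesa peaks, which is 7.43% of the 6215 Eomesa peaks on these chromosomes and 7.88% of the 5862 that were lone, meaning not shared with Smad2. Before dense groups were set aside, 669 lone Eomesa peaks lay within 50 kb of a Smad2 peak, and 207 of them were in such groups.

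The groups were Smad2 chromatin immunoprecipitation (ChIP), Eomesa ChIP and input, with 2 libraries of each and 6 in all. Every library came from pooled, untreated whole embryos of the AB strain fixed at high-sphere stage, so cells of all regions of the embryo were mixed. Input is sheared chromatin taken before any antibody is added. The data held 1 list of peaks for each factor and 1 coverage track for each of the 3 groups, and peaks in a list had been found in both reactions. No error between replicates can therefore be given. Intervals below are 95% intervals over peaks, which are not replicates of the embryo.

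Nodal ligands act through receptors at the cell surface, and the signal reaches the nucleus when Smad2 is phosphorylated. Smad2 binds DNA weakly and is brought to its sites by partners, among them Foxh1, a forkhead factor. Eomesodermin, a T-box factor laid down by the mother in the fish egg, is another such partner and takes part in forming mesoderm and endoderm. Enhancers often lie far from the gene they act on, and several can serve the same gene, so the spacing of peaks bears on which sites might be read together.

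The peak calls of both factors chose the members, so every height of Eomesa, Smad2 and input was used by the rule or came from the same contrasts. All values are given as descriptions, with no test. Height is the highest number of overlapping tags within a peak. A tag covered 38.9 bp in the Eomesa track against 132 bp in the Smad2 and input tracks, so Eomesa heights cannot be ranked against the others. Depth was 12.3 M tags for Eomesa (M, mega), 12.6 M for Smad2 and 19.0 M for input. These covered 15.5%, 51.0% and 54.8% of the 1412 Mb spanned. Input was thus the deepest, and where Smad2 is set against input below, each is first divided by its own average over the genome. The highest value anywhere in the Eomesa track was 78 tags, which compresses the tallest peaks. Coordinates are those of the deposited lists on the Zv9 build.

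Foxh1 sites are shown first, as the sequences by which a member can be compared with its Smad2 neighbour. They are the best matches to the Foxh1 matrix noted for the peaks in the supplement of the study. The Eomesa list of that supplement is held here in part and covers 155 members. The held part is the start of the list and not a sample of it. Every member with a site in it lay on chromosome 1 or on chromosomes 10 to 17. Shares over the held list, here and for genes below, are limited in the same way. Each site has 11 bases. Capitals mark the 4 positions with an identical base in all 492 Eomesa sites of the held list, and the place and strand of a site within its peak are not given. The 12 members with a site that had the tallest Eomesa signal follow, each with its site.
Eomesa_peak1996: atgAtTacACa
Eomesa_peak127: gcaAtTacACa
Eomesa_peak170: aaaAaTcaACa
Eomesa_peak215: ctgAaTccACt
Eomesa_peak29: tgtAaTccACt
Eomesa_peak628: ggtAaTacACa
Eomesa_peak488: gatAaTccACt
Eomesa_peak1148: aaaAaTaaACa
Eomesa_peak1192: agaAaTaaACa
Eomesa_peak1563: tacAaTacACa
Eomesa_peak327: tgcAgTcaACa
Eomesa_peak935: cccAaTacACt

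For comparison, the Smad2 peaks nearest to these members carried their own listed sites, except those beside Eomesa_peak127 and Eomesa_peak1563. Some of these sites follow as examples and not as a complete list. Smad2_peak279 neighbours Eomesa_peak1996, Smad2_peak32 neighbours Eomesa_peak170, Smad2_peak91 neighbours Eomesa_peak628, Smad2_peak157 neighbours Eomesa_peak1148 and Smad2_peak168 neighbours Eomesa_peak1192.
Smad2_peak279: acgAgTccACa
Smad2_peak32: aacAaTccACa
Smad2_peak91: ttaAaTacACa
Smad2_peak157: agaAaTaaACa
Smad2_peak168: cccAaTacACa

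A site was listed for 35 of the 155 members in the held list (22.6%, Wilson interval 16.7 to 29.8), against 332 of 1517 isolated Eomesa peaks (21.9%, 19.9 to 24.0). Isolated peaks are lone Eomesa peaks with no Smad2 peak within 50 kb and outside dense groups. The share over all 1998 Eomesa peaks of the held list was 24.6%, so members were near this background. Members with a site had a median Smad2 height of 12 tags, against 7 tags in the 120 members without one. Their median Eomesa height was 19 tags against 15 tags, and their median width 388 bp against 263 bp, while input had a median of 8 tags in both. Wider peaks offer more bases in which a match can be found, and the part of width in these values was not tested. The 35 members held 34 different sequences.

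Eomesa heights of the members had a median of 15 tags with quartiles of 10 and 23, against a median of 14 tags with quartiles of 9 and 21 in the 4717 isolated peaks. The 353 Eomesa peaks shared with Smad2 had a median of 23 tags. The intervals of the medians were 14 to 16 tags for members and 13 to 14 tags for isolated peaks, so these adjoin. The highest decile of all Eomesa peaks, those of 34 tags or more, held 59 members (12.8%), against a background of 10.3%. The median width was 276 bp (quartiles 188 and 386.5 bp), within limits of 2 and 1300 bp. A width under 100 bp was found for 37 members (8.01%), against a background of 12.4% of lone Eomesa peaks.

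Smad2 signal at the members was below that of called Smad2 sites and above that of isolated Eomesa peaks. It was close to that of lone peaks of dense groups. The median Smad2 height was 8.5 tags with quartiles of 5 and 12 at members (interval of the median 8 to 9), against 7 tags with quartiles of 4 and 10 at isolated peaks (6 to 7). It was 25 tags at shared peaks. A Smad2 height of at least 10 tags, the lowest decile of called Smad2 peaks, was reached by 187 of 462 members (40.5%, 36.1 to 45.01), against 1282 of 4717 isolated peaks (27.2%, 25.9 to 28.5). In the 683 lone peaks of dense groups the median was 8 tags and the share 37.5% (33.9 to 41.2). The share over all lone Eomesa peaks was 29.4%. At least 13 tags, the median of lone Smad2 peaks, were reached by 113 members (24.5%), against a background of 15.0%.

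Input was nearly level between the classes, with a median of 8 tags at members and 7 tags at isolated peaks. At least 10 input tags were found at 166 members (35.9%), against a background of 33.4%. With each track divided by its average over the genome, the ratio of Smad2 to input had a median of 1.74 at members (quartiles 1.06 and 2.68) and 1.39 at isolated peaks (0.871 and 2.21). The median was 1.73 in dense groups and 4.34 at shared peaks. The ratio exceeded 1 at 353 of the 461 members with signal in either track (76.6%), against a background of 69.8%. It did so at 76.0% of the lone peaks of dense groups.

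**Figure D1:**
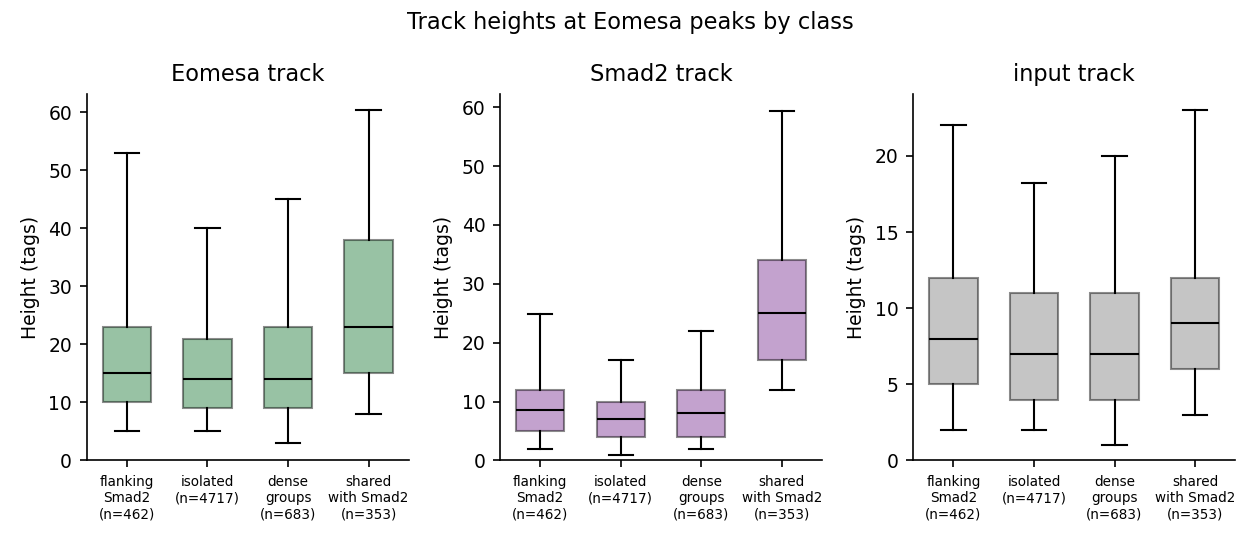
Height in tags of the Eomesa, Smad2 and input tracks at 462 flanking members, 4717 isolated Eomesa peaks, 683 lone peaks of dense groups and 353 peaks shared with Smad2. Boxes span the quartiles, the line is the median and whiskers run between the 5th and 95th percentiles. The Smad2 medians are 8.5 tags at members, 7 at isolated peaks, 8 in dense groups and 25 at shared peaks.

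Members and isolated peaks were also compared within 4 ranges of Eomesa height, set by the quartiles of the members. In the lowest range, 18.8% of members and 11.96% of isolated peaks had 10 or more Smad2 tags. In the middle ranges the shares were 33.0% of members against 24.3% of isolated peaks, and 49.1% of members against 33.7% of isolated peaks. In the highest range they were 65.2% of members (interval 56.0 to 73.4) against 48.7% of isolated peaks (45.5 to 51.9). The share grew with Eomesa height in both classes, but input grew as well. Between the lowest and highest range, the share with 10 or more input tags went from 15.0% to 58.0% at members. At isolated peaks it went from 15.8% to 58.5%. The median ratio of Smad2 to input went from 1.60 to 1.96 at members and from 1.44 to 1.34 at isolated peaks. The part of input in the growth of the Smad2 share was not tested. The share with 10 or more Smad2 tags was higher among members than among isolated peaks in each of the 4 ranges, which is a description and not a test.

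The mean profile gave the shape of this signal for the 348 members more than 5 kb from a Smad2 peak. Over the Eomesa maximum the mean Smad2 track reached 5.72 times its average over the genome at these members and 4.22 times at isolated peaks. At 1.5 to 2 kb to either side it was 1.30 times and 1.12 times the mean. The Eomesa track reached 42.1 times its mean at these members and 35.1 times at isolated peaks. Input was raised at the Eomesa maximum as well, with 3.50 times its mean at members and 3.11 times at isolated peaks, and its part in the Smad2 signal was not tested. Near-identical copies, described below, were kept in this profile, and their part in it was not tested. Averaged over whole peaks, Smad2 signal was 4.92 times its genome mean at all 462 members, 4.65 without copies and 3.68 at isolated peaks. For input these means were 2.99, 2.82 and 2.73.

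**Figure D2:**
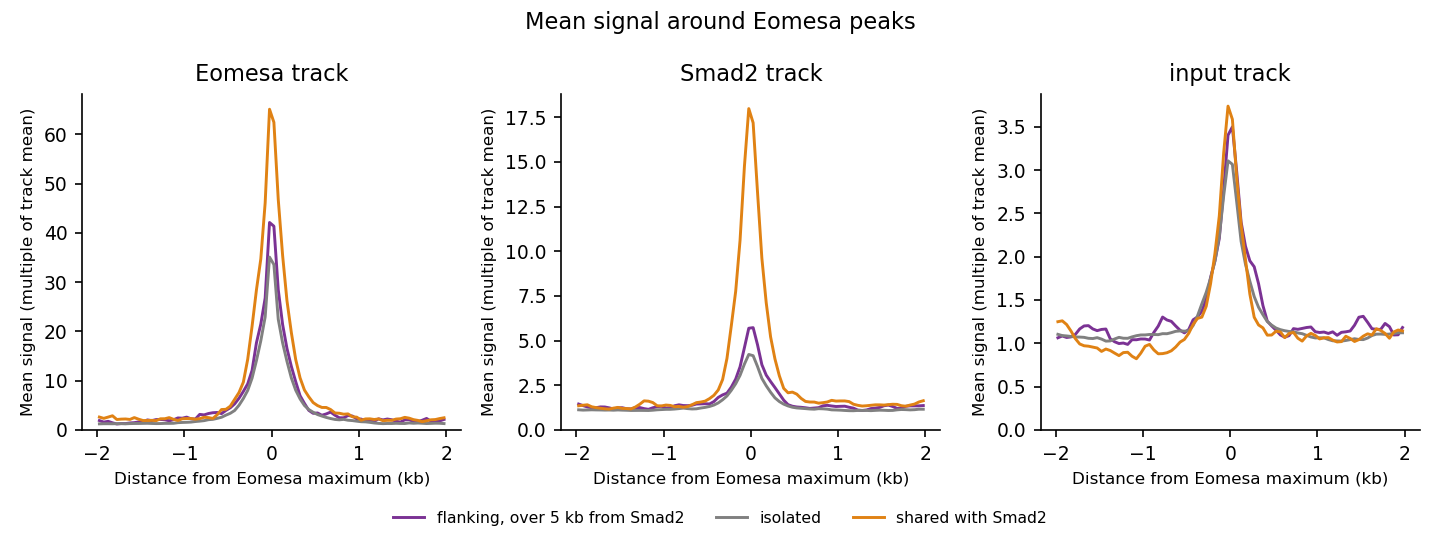
Mean signal, in multiples of the average of each track over the genome, against distance from the Eomesa maximum in kb, for 348 members over 5 kb from Smad2, 4717 isolated Eomesa peaks and 353 shared peaks. In the Smad2 panel the members reach 5.72, the isolated peaks 4.22 and the shared peaks 18.0, while the input maxima lie between 3.11 and 3.74. Near-identical copies among the members are included. The vertical scales differ between panels.

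Members lay close to their neighbours more often than far from them. The median distance to the nearest Smad2 peak was 16.4 kb, with quartiles of 5.06 and 30.2 kb. There were 114 members in the first 5 kb, 49 in the next 5 kb and 17 in the last 5 kb below the limit of 50 kb. Beyond it, isolated Eomesa peaks numbered 33 between 50 and 55 kb and 35 between 55 and 60 kb. Members fell evenly on both sides, with 232 to the left of the nearest Smad2 peak and 230 to its right on the assembly. Smad2 peaks on both sides within 50 kb were present for 33 members. A further count gave 364 members with 1 Smad2 peak within 50 kb and 98 with more, up to 12.

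**Figure D3:**
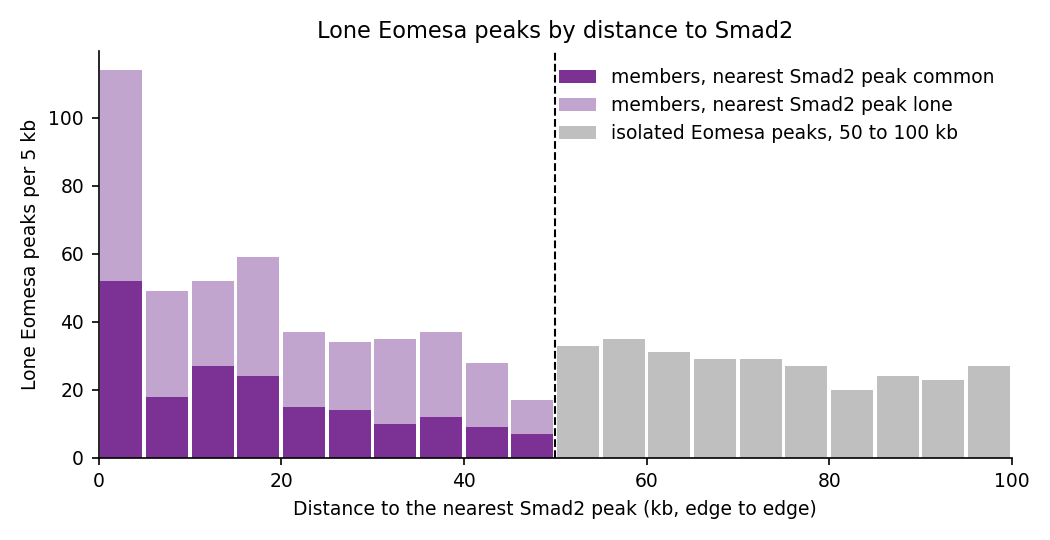
Number of lone Eomesa peaks outside dense groups per 5 kb of distance to the nearest Smad2 peak. Purple bars are members, split by whether that Smad2 peak is common (shared with Eomesa) or lone, and grey bars are isolated peaks beyond the limit of 50 kb, drawn as a dashed line. The first bar holds 114 members, the last member bar 17, and the first grey bar 33 peaks.

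The 3 members nearest to a Smad2 peak were slivers. Eomesa_peak4818 (chromosome 5, 31605410 to 31605466) was 1 bp from Smad2_peak674 and had 6 Eomesa, 4 Smad2 and 4 input tags. Eomesa_peak6093 (chromosome 9, 32317827 to 32317834) was 7 bp wide, 14 bp from Smad2_peak862 at zic5 and zic2a, and had 2 Eomesa, 4 Smad2 and 1 input tags. Eomesa_peak3804 (chromosome 24, 14418444 to 14418529) was 24 bp away and had 6 Eomesa, 4 Smad2 and 2 input tags. These edge members had few tags of either factor, and they passed the rule by a few bases.

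The rule has a limit at 50 kb. Just inside 50 kb, Eomesa_peak1228 at 49.7 kb had 12 Eomesa and 9 Smad2 tags, Eomesa_peak129 at 49.9 kb had 10 and 2, and Eomesa_peak1374 at 49.9 kb had 28 and 5. Just outside, Eomesa_peak5270 at 50.1 kb had 6 Eomesa and 4 Smad2 tags, Eomesa_peak4847 at 50.2 kb had 16 and 11, and Eomesa_peak2472 at 50.4 kb had 13 and 9. The values of these 6 peaks overlap across the limit. Over wider ranges, the 45 members at 40 to 50 kb had medians of 15 Eomesa, 7 Smad2 and 8 input tags, against 13 Eomesa, 5 Smad2 and 6 input tags in the 68 isolated peaks at 50 to 60 kb. There were 4.5 members per kb in the first of these ranges and 6.8 isolated peaks per kb in the second.

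Smad2 signal relative to input was higher at members within 10 kb of the neighbour than at those farther away. By height this was so at 1 to 10 kb but not within 1 kb. The median Smad2 height was 8 tags in the 38 members within 1 kb, 11 tags in the 76 members at 1 to 5 kb and 12 tags in the 49 members at 5 to 10 kb. It was 8 tags at 10 to 20 kb, 8 at 20 to 30 kb, 8.5 at 30 to 40 kb and 7 at 40 to 50 kb. Median input was 5 tags within 1 kb and 7 or 8 tags in every other range, and median Eomesa height stayed between 14 and 17 tags in all 7 ranges. At least 10 Smad2 tags were found at 87 of 163 members within 10 kb (53.4%, 45.7 to 60.9), against 100 of 299 members farther away (33.4%, 28.3 to 39.0). The ratio of Smad2 to input had a median of 2.75 within 1 kb, 2.01 at 1 to 5 kb and 2.18 at 5 to 10 kb, and lay between 1.53 and 1.64 in the 4 ranges beyond. The highest median height was thus at 5 to 10 kb and the highest median ratio within 1 kb, where median input was lowest. How much of the signal within 1 kb comes from the neighbouring Smad2 peak was not tested. Of the 38 members within 1 kb, 9 were under 100 bp wide (23.7%), against 6.58% at 1 to 5 kb and 8.16% at 5 to 10 kb. The part of width in the lower heights within 1 kb was not tested. Within 1 kb the share with 10 or more Smad2 tags was 39.5% (25.6 to 55.3). Between 1 and 10 kb it was 57.6%, and without near-identical copies, which are described below, it was 56.4% of 117 members.

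**Figure D4:**
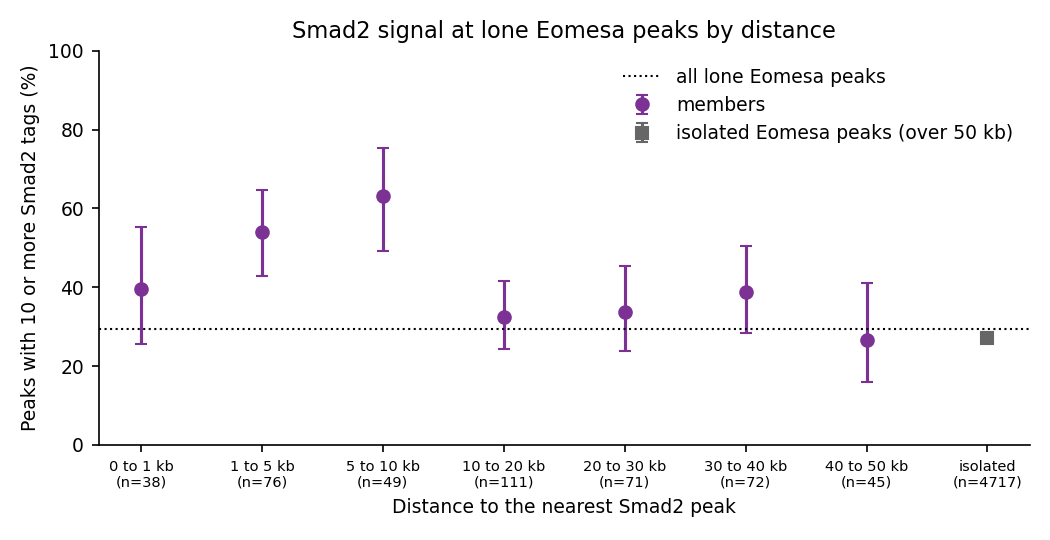
Percent of members with 10 or more Smad2 tags by distance to the nearest Smad2 peak in kb, with isolated Eomesa peaks at the right. Points are shares, bars are 95% Wilson intervals over peaks, and the dotted line is the 29.4% of all lone Eomesa peaks. The share is 39.5% within 1 kb, 63.3% at 5 to 10 kb, 32.4% at 10 to 20 kb and 27.2% at isolated peaks. Members under 100 bp wide make up 23.7% of those within 1 kb.

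The nearest Smad2 peaks numbered 317, which is 36.0% of the 880 Smad2 peaks on chromosomes 1 to 25. A common Smad2 peak, meaning one shared with Eomesa, was nearest to 188 members (40.7%), and 39.7% of all Smad2 peaks were common. The Eomesa peak at a common Smad2 peak counts toward a dense group, so the rule itself bears on this share. It was 52.2% with dense groups kept and 34.9% with gaps of 20 kb. Whether members lie beside common peaks more or less often than the list would give can therefore not be read from it. The 317 neighbours had a median Smad2 height of 17 tags, against 16 tags at the 563 Smad2 peaks that were nearest to no member. Members beside a common peak had medians of 9 Smad2 and 16 Eomesa tags, and members beside a lone Smad2 peak had 8 Smad2 and 14 Eomesa tags. Of the neighbours, 206 had 1 member, 87 had 2 and 17 had 3, while 6 had 4 and Smad2_peak450 had 7.

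Many members came in pairs. Another Eomesa peak within 10 kb was present for 191 members. It was a further member for 120 of them and a peak shared with Smad2 for 71. The median gap to a further member was 1066.5 bp, but some partners nearly adjoined, as Eomesa_peak1267 and Eomesa_peak1268 with 2 bp between them. Whether such partners are separate sites was not tested. Paired members had a median Smad2 height of 10 tags against 8 tags in the 271 unpaired members. At least 10 Smad2 tags were found at 50.8% of paired members (43.8 to 57.8) and 33.2% of unpaired members (27.9 to 39.0). Paired members were also nearer to a Smad2 peak, at a median of 7.13 kb against 23.7 kb. For those next to a shared peak, a nearby Smad2 peak is given by construction, and the part of distance was not tested. The 71 members next to a shared peak had medians of 17 Eomesa and 12 Smad2 tags, against 28 Eomesa and 26 Smad2 tags at the shared partners, from which they were a median of 2183 bp away. The member was the taller of the pair in Eomesa signal in 20 of these 71 cases.

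Genes were taken from the annotation that accompanies the peaks, in which a gene is named when its start site lies within 10 kb of the centre of the peak on Zv9. The nearest Smad2 peak had such a gene for 276 members. In the held list, 76 of 155 members had a gene of their own (49.0%, 41.3 to 56.8), against 600 of 1517 isolated peaks (39.6%, 37.1 to 42.0), 108 of 203 peaks of dense groups (53.2%) and 70 of 123 shared peaks (56.9%). Where the member and its Smad2 neighbour both had a gene, the gene was the same for 40 of 62 members. It was the same for 30 of 33 members within 10 kb and for 10 of 29 farther away. Peaks close together have mostly the same start sites within 10 kb, so the annotation rule largely fixes this contrast. A gene named below is that of the Smad2 neighbour and often lies well away from the member. Some Smad2 peaks had more than 1 gene, such as aldh1a2 with aqp9b, zic2b with pcca and foxd3 with BX664614.1.

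Of 104 genes on 4 lists of Nodal and patterning genes, 71 had a Smad2 peak and 36 of these had a member beside it, with 59 members in all. These had a median of 16 Eomesa and 9 Smad2 tags, and 22 of the 59 (37.3%) had 10 or more Smad2 tags, against 40.5% of all members. Members beside genes on the lists were thus near the whole set in Smad2 signal. As a background, 317 of 880 Smad2 peaks (36.0%) were nearest to a member, as were 188 of the 536 with any annotated gene. These are counts of peaks, and a gene can have more than 1 Smad2 peak, so they cannot be set directly against counts of genes.

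Nodal pathway genes had members at 6 of the 9 genes with a Smad2 peak, against 36 of 71 over all 4 lists. These 12 members had the second highest list median of Eomesa height, 20 tags, with 5 Smad2 tags and 4.5 input tags, and 3 of the 12 reached 10 Smad2 tags. The tallest was at oep, the EGF-CFC co-receptor without which cells cannot receive Nodal. Eomesa_peak264 (chromosome 10, 1970135 to 1971435) had 77 Eomesa, 6 Smad2 and 10 input tags, 13.4 kb from Smad2_peak46. Its neighbour Eomesa_peak263 (chromosome 10, 1969218 to 1969812) had 58 Eomesa, 5 Smad2 and 10 input tags. The ratio of Smad2 to input was 0.621 at Eomesa_peak264 and 0.768 at Eomesa_peak263. The members at oep thus had tall Eomesa signal without Smad2 signal above input, while Smad2_peak46 itself had 23 Smad2 and 5 input tags.

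The gene ndr1 encodes the Nodal ligand Squint. Smad2_peak441 (chromosome 21, 19847668 to 19848211), annotated with ndr1 and also with EIF4EBP1 and ANK1, had 15 Smad2 and 15 input tags. Eomesa_peak3207 (chromosome 21, 19838555 to 19838806) had 17 Eomesa, 24 Smad2 and 4 input tags, and Eomesa_peak3208 (19839554 to 19839757) had 7 Eomesa, 22 Smad2 and 4 input tags. Both members had more Smad2 tags than the called Smad2 peak, 8.86 and 7.91 kb away, and fewer input tags, and the ratio of Smad2 to input was 6.61 and 6.25. The other 2 members at ndr1, Eomesa_peak3209 and Eomesa_peak3210, lay 42.8 and 42.9 kb away with 3 and 5 Smad2 tags. Only 15 bp lay between them.

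At foxh1, which encodes the forkhead partner of Smad2, the 2 members differed. Eomesa_peak769 (chromosome 12, 14797170 to 14797258) had 41 Eomesa, 1 Smad2 and 2 input tags at 37.4 kb from Smad2_peak108. Eomesa_peak771 (chromosome 12, 14835717 to 14836066) had 23 Eomesa, 21 Smad2 and 5 input tags at 0.438 kb, and a Foxh1 site, printed here because the peak lies at the gene of that factor.
Eomesa_peak771: cccAaTcaACa

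The remaining Nodal pathway members had few Smad2 tags. Eomesa_peak1874, 44.6 kb from a Smad2 peak at dvr1, the gene of the ligand Vg1, had 32 Eomesa, 4 Smad2 and 18 input tags. Eomesa_peak3664 at acvr1b, an Activin and Nodal type I receptor, had 10 Eomesa, 7 Smad2 and 20 input tags. Eomesa_peak3780 and Eomesa_peak3779 at tgif1, a homeobox repressor of Smad activity, had 10 and 9 Eomesa tags with 3 and 4 Smad2 tags. Their input was 2 and 1 tags, and they were 19 bp apart. The ratio of Smad2 to input was 1.80 and 13.6 at these, on few tags in both tracks. It was 0.339 at Eomesa_peak1874 and 0.649 at Eomesa_peak3664.

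Transcription factors of mesoderm and endoderm had members at 7 of 20 genes with a Smad2 peak. These 11 members had the lowest list median of Eomesa height, 11 tags, with 8 Smad2 tags, and 5 of the 11 reached 10 Smad2 tags. At sox32, the Sox factor that specifies endoderm in fish, Eomesa_peak5615 (chromosome 7, 65344096 to 65344455) had 23 Eomesa, 22 Smad2 and 2 input tags at 0.132 kb from Smad2_peak801, while Eomesa_peak5613 at 36.6 kb had 15 Eomesa, 7 Smad2 and 9 input tags. The near member had more Smad2 tags than the called peak, which had 15. The gap between them is about the 132 bp that a Smad2 tag covers, and whether they are separate sites was not tested.

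At ntla, the Brachyury homologue needed for notochord and tail mesoderm, Eomesa_peak2495 had 19 Eomesa and 11 Smad2 tags at 23.0 kb, and Eomesa_peak2496 had 11 and 4 at 42.4 kb. At gsc, a homeobox gene of the organiser, Eomesa_peak1946 had 14 Eomesa and 10 Smad2 tags with 19 input tags, and Eomesa_peak1947 had 13 Eomesa, 8 Smad2 and 8 input tags. The ratio of Smad2 to input was 0.676 at Eomesa_peak2496 and 0.947 at Eomesa_peak1946, below 1 in both. It was above 1 at the other member of each gene, 2.64 at Eomesa_peak2495 and 1.38 at Eomesa_peak1947. The members at foxa3, foxc1a and mesp2 had 8 to 10 Eomesa tags and 3 to 15 Smad2 tags.

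Secreted patterning signals and their feedback regulators had members at 12 of 24 genes with a Smad2 peak. These 20 members had medians of 15.5 Eomesa and 9 Smad2 tags, and 9 of the 20 reached 10 Smad2 tags. The locus with most members was Smad2_peak450 (chromosome 21, 36518430 to 36518738) at fgfr4, an FGF receptor. Its 7 members lay 5.85 to 29.9 kb away, 2 on the left and 5 on the right. They had 5 to 42 Eomesa tags and 4 to 17 Smad2 tags, and Eomesa_peak3293 and Eomesa_peak3294 among them were 5 bp apart. The tallest, Eomesa_peak3292 (36504737 to 36505220), had 42 Eomesa, 15 Smad2 and 7 input tags. Smad2_peak450 had 15 Smad2 tags, and so stood no higher in Smad2 than Eomesa_peak3292, with 15, or Eomesa_peak3295, with 17.

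FGF feedback was represented by dusp6, a phosphatase of ERK. Eomesa_peak4014 at 1.43 kb had 17 Eomesa, 18 Smad2 and 5 input tags, and Eomesa_peak4013 at 25.7 kb had 35 Eomesa, 9 Smad2 and 14 input tags. The nearer of these had the lower Eomesa and the higher Smad2 signal, which was also so at foxh1, while at sox32 and grhl3 the nearer member had the higher Eomesa signal and at zic2b the lower Smad2 signal. At spry2, an FGF antagonist, Eomesa_peak10 and Eomesa_peak11 had 19 and 11 Eomesa tags with 6 and 9 Smad2 tags.

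In the BMP pathway, Eomesa_peak527 at bmp7a, a ventralising ligand, had 38 Eomesa, 17 Smad2 and 8 input tags. The other member whose Smad2 neighbour was annotated with bmp7a, Eomesa_peak526, lay 16.5 kb from that neighbour and had CR925817.3 as its own gene. Eomesa_peak526 was 23 bp wide with 4 Eomesa tags and was among the 5 members with no Smad2 tag at all. At chd, the secreted BMP antagonist Chordin, Eomesa_peak1631 had 9 Eomesa, 12 Smad2 and 5 input tags. The member at cxcl12a, a chemokine that guides migrating cells, was Eomesa_peak1075 with 23 Eomesa, 18 Smad2 and 9 input tags. At aldh1a2, which makes retinoic acid, Eomesa_peak5440 had 17 Eomesa, 12 Smad2 and 3 input tags at 0.815 kb.

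Ectodermal and neural genes had members at 11 of 18 genes with a Smad2 peak, and these 17 members had the highest list median of Eomesa height, 22 tags. Their median Smad2 height was 9 tags, and 6 of the 17 (35.3%) reached 10 tags. At zic2b, a zinc finger gene of the early neural plate, Eomesa_peak127 (chromosome 1, 28839129 to 28839677) had 61 Eomesa, 24 Smad2 and 21 input tags, and Eomesa_peak123 (28800393 to 28800763) had 44 Eomesa, 15 Smad2 and 14 input tags. Both flanked Smad2_peak22, at 27.7 and 10.4 kb, and the ratio of Smad2 to input was 2.01 and 1.74, near the median of all members.

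At grhl3, a Grainyhead factor of the epidermis, Eomesa_peak1989 (chromosome 17, 26806656 to 26807184) had 55 Eomesa, 14 Smad2 and 7 input tags. The 2 members at foxd3, a forkhead gene of pluripotent and neural crest cells, had 25 and 24 Eomesa tags with 4 and 9 Smad2 tags. At klf4, a Krüppel-like factor, Eomesa_peak2741 and Eomesa_peak2740 had 28 and 22 Eomesa tags with 9 and 10 Smad2 tags. Eomesa_peak5329 at vax2, a homeobox gene of the ventral eye, had 32 Eomesa, 7 Smad2 and 22 input tags. At stm, Eomesa_peak2346 had 35 Eomesa, 6 Smad2 and 9 input tags, and Eomesa_peak2344 had 16 Eomesa, 15 Smad2 and 16 input tags. The ratio of Smad2 to input was 0.799 at Eomesa_peak2346 and 1.62 at Eomesa_peak2344. Eomesa_peak707, beside a Smad2 peak at hesx1 and il17rd, had 19 Eomesa, 17 Smad2 and 9 input tags. Eomesa_peak5459 at irx3a had 18 Eomesa, 6 Smad2 and 14 input tags, with a ratio of 0.980. Of the 17 ectodermal and neural members, 12 lay above the median Eomesa height of all members. So did 7 of the 12 Nodal pathway members, 10 of the 20 beside secreted signals, 2 of the 11 beside mesoderm and endoderm factors, and 30 of the 59 on any list, against 220 of all 462 members (47.6%). The lists are small and were not tested against each other.

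**Figure D5:**
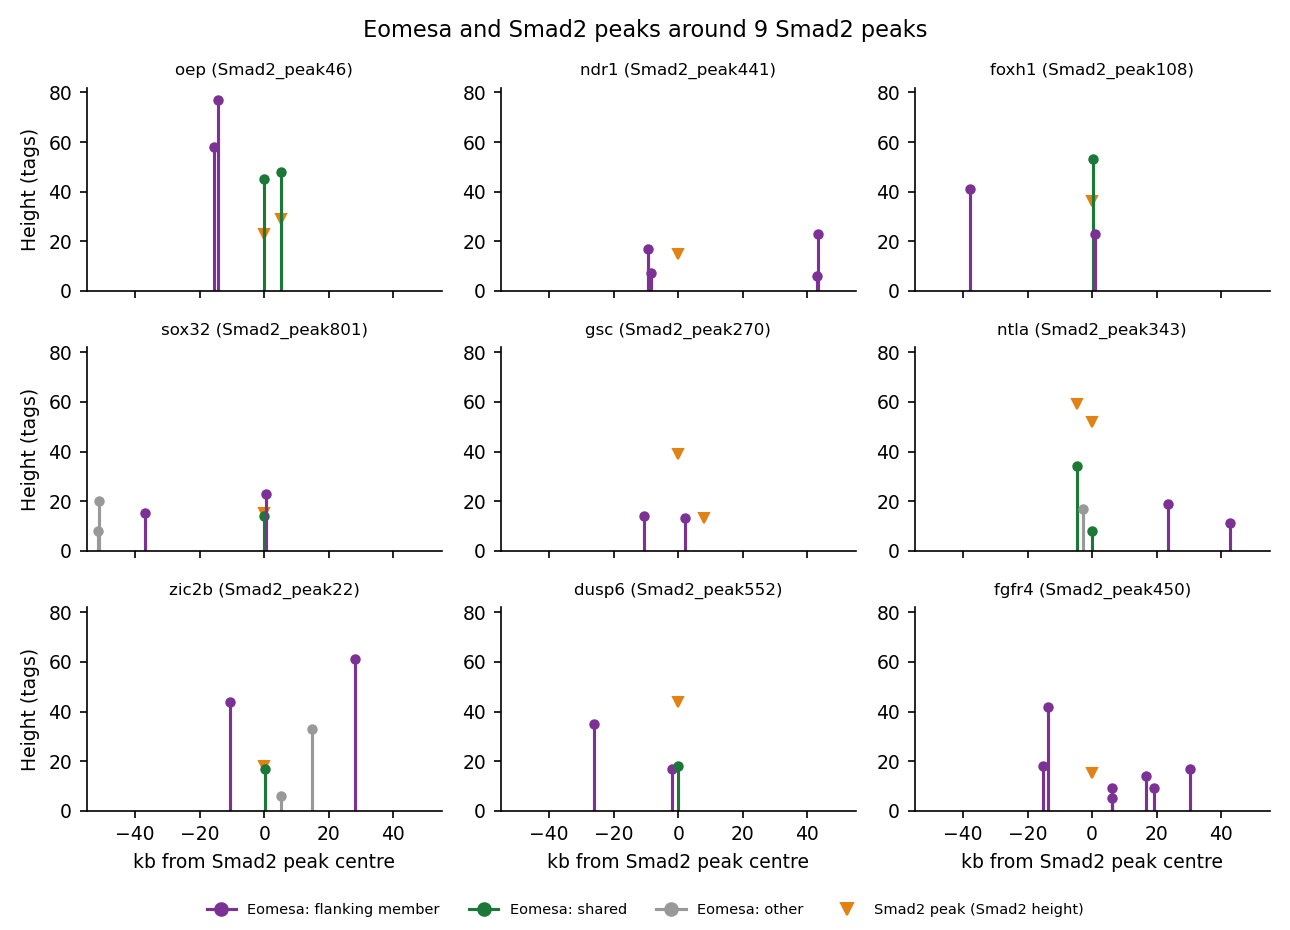
Peaks around 9 Smad2 peaks, named by a gene, against distance in kb from the centre of that Smad2 peak. Stems show Eomesa heights in tags (purple for flanking members, green for Eomesa peaks shared with Smad2, grey for other Eomesa peaks), and orange triangles show Smad2 heights of Smad2 peaks, which are not on a scale comparable with Eomesa. At oep the members reach 77 and 58 Eomesa tags, and at fgfr4 the 7 members lie on both sides of the Smad2 peak.

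Among the members of the tallest signal, copies had to be told from separate sites. The authors had kept reads that mapped to as many as 2 places, and such a read can count at both copies of a duplicated stretch. By the match of their profiles in all 3 tracks, 18 members in 10 pairs were near-identical copies. Eomesa_peak1996 (chromosome 17, 27549193 to 27550305) and Eomesa_peak2000 (27752466 to 27753578), near Smad2 peaks at qk, the RNA-binding protein Quaking, each had 76 Eomesa, 33 Smad2 and 18 input tags. Their Smad2 neighbours, Smad2_peak279 and Smad2_peak280, also carried the same Foxh1 site letters. The values of such a pair are not separate measurements.

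The members highest in Smad2 were copies at the start of chromosome 18, beside Smad2_peak297, which had 64 Smad2 and 70 input tags. Eomesa_peak2119 (26067 to 26435) and Eomesa_peak2120 (33177 to 33545) each had 62 Eomesa, 78 Smad2 and 78 input tags. Eomesa_peak2121 (47371 to 47500) and Eomesa_peak2122 (48207 to 48336) had 68 and 69 Eomesa tags and 48 Smad2 and 45 input tags each. The ratio of Smad2 to input was 1.499 at the first of these pairs, and 1.74 at Eomesa_peak2121 and 1.73 at Eomesa_peak2122, so that none stood clearly above the median of all members, 1.74.

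The tallest members that were not copies were Eomesa_peak264 at oep and Eomesa_peak3645 (chromosome 23, 25399669 to 25400148), each with 77 Eomesa tags. Eomesa_peak3645 had 14 Smad2 and 7 input tags at 13.2 kb from Smad2_peak494. Outside the copies, the highest Smad2 value was 39 tags at Eomesa_peak4322 (chromosome 3, 40422809 to 40423274), with 49 Eomesa and 46 input tags and a ratio of 1.43. Eomesa_peak628 (chromosome 11, 26190251 to 26191174), whose Foxh1 site is printed above, had 56 Eomesa and 34 Smad2 tags, and Eomesa_peak488 (chromosome 10, 46347964 to 46348542) had 49 Eomesa and 30 Smad2 tags. Their ratios of Smad2 to input were 3.21 and 3.29. At these 2 members Smad2 exceeded the 25 tags that were the median of shared peaks, without a Smad2 peak being listed.

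Apart from Smad2_peak450 at fgfr4, the Smad2 peaks with most members were 6 that tied at 4 members, of which those at ndr1 and on chromosome 18 are described above. Smad2_peak424 (chromosome 21, 2650864 to 2651122) was common, with 32 Smad2 tags, and its 4 members had 16 to 63 Eomesa and 8 to 22 Smad2 tags. Smad2_peak69 (chromosome 10, 43996721 to 43996952) was lone, with 15 Smad2 tags, and its 4 members, 21.3 to 38.6 kb away, had 8 to 25 Eomesa and 8 to 24 Smad2 tags. Eomesa_peak472 and Eomesa_peak475 there had 24 and 22 Smad2 tags, both above the called peak. Smad2_peak610 (chromosome 3, 33275147 to 33275431) was lone, with 13 Smad2 tags, and its 4 members had 9 to 24 Eomesa and 2 to 18 Smad2 tags. Smad2_peak180 (chromosome 14, 19662988 to 19663422), at dusp1, a phosphatase of MAP kinases, was lone with 11 Smad2 and 17 input tags. Its 4 members all lay on the left, 0.591 to 30.2 kb away, with 4 to 34 Eomesa and 0 to 13 Smad2 tags. Eomesa_peak1267 and Eomesa_peak1268 among them were 2 bp apart.

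No Smad2 tag was counted at 5 members, Eomesa_peak4629, Eomesa_peak4972, Eomesa_peak440, Eomesa_peak526 and Eomesa_peak1267. They were 4 to 70 bp wide and had 2 to 9 Eomesa tags. Input was between 0 and 7 tags at these members, with the 7 at Eomesa_peak526.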

How the data were processed

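ChIP-seq was done by the authors on high-sphere embryos (6 libraries, 3 groups, 2 each, grouped by title). Reads were mapped to Zv9 with Bowtie, keeping those with up to 2 places, and peaks were called with MACS against input and kept when found in both reactions. The deposited lists give positions and, as another column, the width in bp. The tracks deposited by the authors hold signal, the pileup of shifted tags in 5 bp bins, not scaled to depth. Whether tracks pool both reactions, and which input is held, is not stated in the sources used here.

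Peaks were joined on their coordinates as deposited, and height was the highest signal within a peak. Tag length was measured from isolated runs of 1 tag, and signal was divided by the genome-wide mean for multiples. Shares have 95% Wilson intervals, and medians 95% order-statistic intervals. These cover counting over peaks only, and with 1 track per group no precision between embryos is known. Python 3.11.15, numpy 2.4.6, pandas 2.3.3 and scipy 1.17.1 were used. Near-identical copies lay on the same chromosome with widths within 2 bp and mean profile differences of at most 5% of height in every track, at 5 or more Eomesa tags. The scripts were tested on simulated data.

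Named members were those tested by ChIP-qPCR (none met the rule, as the 3 lone Eomesa peaks taken there were isolated), the 5 tallest in each factor, those at the distance limits, up to 30 beside genes of 4 lists ranked by Eomesa height, the 5 Smad2 peaks with most members (7 are given, as 6 tied at 4 members), and up to 12 with a Foxh1 site ranked by Eomesa height. Of the members beside listed genes, those at foxd3 and some at fgfr4 are given by locus only. Others, such as those at ndr1, were named after their values were seen. The members, lists and rules were chosen with earlier results of these data known. Alternatives covered distance, dense groups, overlap, width, height measure, scaling and stricter Smad2 lists. Gene names and Foxh1 sites came from supplementary lists, the Eomesa list in part, and no other column of those was used.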

Additional observations from a re-analysis of the deposited data

How the results depend on the processing

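With 1 track and 1 list per factor, no value has an error between replicates, and the depth of 12.3 M Eomesa tags limits heights to small whole numbers. No paired analysis was possible because replicates had been merged before deposit or cannot be separated in the tracks, so no replicate could be left out either. Over 8 results and 108 alternative values, 88 stayed within the interval of the reported value or within 1.5 times for the count, and 20 moved. The number of members, 462, was 740 with a limit of 100 kb, 291 with only the taller Smad2 peaks and 211 with only common Smad2 peaks as neighbours. The share beside a common Smad2 peak, 40.7%, was 47.6% with dense groups defined by gaps of 5 kb, 34.9% with gaps of 20 kb, 52.2% with dense groups kept, 61.5% with the taller Smad2 peaks, 45.5% where sharing meant at least 50% of the Eomesa peak, and 100% by construction with common peaks only. The share within 10 kb, 35.3%, was 52.4% with a limit of 25 kb, 22.0% with 100 kb, 40.1% with gaps of 5 kb, 46.2% with dense groups kept, 29.5% at 1 kb or more from Smad2 and 40.6% where sharing meant at least 50% of the Eomesa peak. A limit of 100 kb gave 1.60 for the Smad2 to input ratio and 36.1% for the share with 10 or more Smad2 tags. The mean over the peak in place of the maximum gave medians of 7.31 Eomesa, 4.93 Smad2 and 4.34 input tags, lower by construction. Leaving out near-identical copies, an alternative chosen after seeing the data, moved none of the 8 results.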

Other observations

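Members were unevenly spread over chromosomes. Chromosome 5 held 35 and chromosomes 17 and 19 held 27 each, while chromosome 20 held 8 and chromosome 16 held 10. Without near-identical copies, chromosome 17 held 21, while chromosomes 5 and 19 stayed at 35 and 27. As a share of lone Eomesa peaks they ran between 3.35% on chromosome 20 and 12.1% on chromosome 14. Per Smad2 peak of the chromosome they ran between 0.204 members on chromosome 25 and 0.828 on chromosome 21, where the loci of fgfr4 and ndr1 lie. More Smad2 than Eomesa tags were counted at 73 of the 462 members. Tag lengths differ between these tracks, and the count was not made for other lone Eomesa peaks. It therefore cannot be read as a trait of the members.

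The 207 lone Eomesa peaks within 50 kb of Smad2 that dense groups had set aside had a median Smad2 height of 10 tags, and 53.1% of them (46.3 to 59.8) had 10 or more tags. This share was close to that of members with another Eomesa peak within 10 kb, 50.8%.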
